A study of Mus musculus with 9 samples.

Results

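The comparison set gene expression on the day of birth (P0) against postnatal day 9 (P9) in the sensory epithelium of the mouse utricle. It used the 6 libraries of these ages, 3 per age, of 9 in the series, and every one of the 10102 genes in the authors' filtered expression table. The remaining 3 libraries were from embryonic day 17.5 (E17.5) and were not compared here. Both groups were Swiss Webster mice with no genotype, treatment or transgene named in the labels, so the groups differ in age alone as labelled. Utricles were removed, the sensory epithelium was isolated from them, and RNA sequencing libraries were made from total RNA. Whether the libraries within an age are separate animals, litters or pools is not stated, so the p-values below measure spread between libraries that may be only technical.

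The utricle is a gravity-sensing organ of the inner ear. Its sensory epithelium, the macula, is a sheet of hair cells, which turn the bending of an actin-filled stereocilia bundle into receptor current, and of supporting cells, which stand on a basement membrane and separate them. An overlying gelatinous membrane loaded with calcium carbonate crystals, the otoconia, couples head movement to the bundles. In the mouse utricle many hair cells are added before birth and in the first postnatal days, and bundles, synapses and the ion transport of the surrounding epithelium go on maturing after birth.

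Levels are given in RPKM (reads scaled to gene length and library size), in the order of replicates 1, 2 and 3 of an age where 3 values are listed. Differences are P9 minus P0 on the log2(RPKM + 1) scale with the standard error of a limma fit, and on that scale the change of a low gene looks smaller than it was. A gene is said to rise or fall only where its Benjamini-Hochberg adjusted p in limma, taken over all 10102 genes, was under 0.05. By that rule 2093 genes rose (20.7% of those tested) and 2526 fell (25.0%), so 45.7% were called in either direction. A fold of at least 2 on this scale was reached by 461 of the risen genes (4.56% of all genes) and 420 of the fallen ones (4.16%). For 5734 genes (56.8%) the 3 libraries of one age all lay above the 3 of the other. These shares are the background against which the counts of each gene group are to be read.

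Library sizes were similar, between 53365510 and 64417934 alignments. Genes are not independent replicates, but correlations across them between libraries were 0.983 to 0.992 within P0, 0.977 to 0.988 within P9 and 0.889 to 0.908 between ages. The mitochondrial genes took 14.5% to 15.99% of summed RPKM at P0 and 11.6%, 15.9% and 11.3% at P9. One library stood apart in its sex-linked genes. The Y-linked genes Ddx3y and Eif2s3y stood at 7.61, 5.004 and 4.95 RPKM at P0 and 7.47, 5.14 and 0.00733 RPKM at P9 and at 14.1, 8.67 and 8.05 RPKM at P0 and 13.4, 9.898 and 0 RPKM at P9, while the X-inactivation transcript Xist was present in all 6 libraries. P9 replicate 3 thus held almost no Y-linked transcript and the other 5 held both kinds. Without it, 2097 genes rose and 2490 fell. The tissue label was checked against 1 gene used to mark hair cells and 1 used to mark supporting cells. Otof, the otoferlin gene of hair cell synapses, stood at 295, 204 and 281 RPKM at P0 and 269, 264 and 266 RPKM at P9, and the supporting cell factor Sox2 at 126, 141 and 134 RPKM at P0 and 103, 87.8 and 88.5 RPKM at P9. Both genes were thus well above 5 RPKM in every library of both ages. Endothelial markers were not analysed here, since none of those searched for was matched.

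The largest rises joined genes of defence, stress, matrix and epithelial metabolism. Cyp2g1, a cytochrome P450 best known from olfactory mucosa, rose from 0.183 ± 0.0907 to 21.8 ± 7.59 RPKM (4.21 ± 0.22, adjusted p = 6.66e-07). Neat1, the long non-coding RNA scaffold of nuclear paraspeckles, rose from 5.85 ± 1.12 to 123 ± 22.6 RPKM (4.18 ± 0.15, adjusted p = 1.13e-07). Tspan8, a tetraspanin of epithelial cells, was at 12.5, 14.9 and 13.2 RPKM at P0 and 239.7, 173 and 213 RPKM at P9 (3.84 ± 0.13, adjusted p = 8.97e-08). Each of these separated the ages completely, and Cyp2g1 was near zero in every P0 library. Igfbp6, which binds insulin-like growth factors and prefers IGF2, was at 1.29, 1.91 and 1.69 RPKM at P0 and 34.8, 42.5 and 36.5 RPKM at P9 (3.89 ± 0.12, adjusted p = 6.15e-08). Ntn4, a netrin found in basement membranes, was at 1.05, 1.22 and 1.103 RPKM at P0 and 22.1, 25.7 and 29.5 RPKM at P9 (3.65 ± 0.12, adjusted p = 6.15e-08). Ces1d, a carboxylesterase, rose from 6.29 ± 0.504 to 66.5 ± 11.2 RPKM, and Steap4, a metalloreductase, from 0.356 ± 0.0479 to 20.6 ± 4.78 RPKM. The other genes among the 15 largest rises were Mt2, Hspa1b, Hspa1a, Ptx3, Lbp, Coch, Bgn and Bcl3, with differences of 3.06 to 3.99, and most of them return with their groups below.

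The largest falls were led by a pair of claudins. Cldn22 was at 66.7, 100.3 and 67.97 RPKM at P0 and 1.61, 1.56 and 1.26 RPKM at P9 and Cldn24 at 38.7, 53.1 and 32.1 RPKM at P0 and 0.215, 0.183 and 0.569 RPKM at P9, and both differences were -4.98 (adjusted p = 6.15e-08 and 9.84e-08). These neighbouring single-exon genes are near copies of each other, so reads could be split between them, and the exon of Cldn22 lies wholly within Wwc2 on the opposite strand in GENCODE vM21. Wwc2 itself stood at 13.2, 13.6 and 12.98 RPKM at P0 and 14.97, 13.1 and 14.9 RPKM at P9 and was not called. Oc90, which encodes the major protein of otoconia, was at 1946, 1840.4 and 1614 RPKM at P0 and 91.998, 93.8 and 87.6 RPKM at P9 (-4.29 ± 0.12, adjusted p = 6.15e-08). Mfap2, a microfibril glycoprotein, was at 281, 335 and 336 RPKM at P0 and 26.6, 28.8 and 22.3 RPKM at P9 (-3.57 ± 0.13, adjusted p = 9.15e-08). Neither gene had a P9 library within reach of a P0 library. Dlk1, an imprinted membrane protein of immature cells, fell from 12.3 ± 2.12 to 0.193 ± 0.0313 RPKM, and Eef1a2, a translation elongation factor of muscle and neurons, from 18.9 ± 1.48 to 1.201 ± 0.323 RPKM. Ecel1, an endopeptidase, fell from 17.5 ± 0.897 to 1.3998 ± 0.382 RPKM, and Chrng, the fetal subunit of the muscle acetylcholine receptor, from 22.9 ± 0.949 to 2.13 ± 0.158 RPKM. Fhl2, Fbln1, Fgf8, Ano1, Ccnd1, Col2a1 and Megf6 completed the list, with differences of -2.45 to -2.75.

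**Figure D1:**
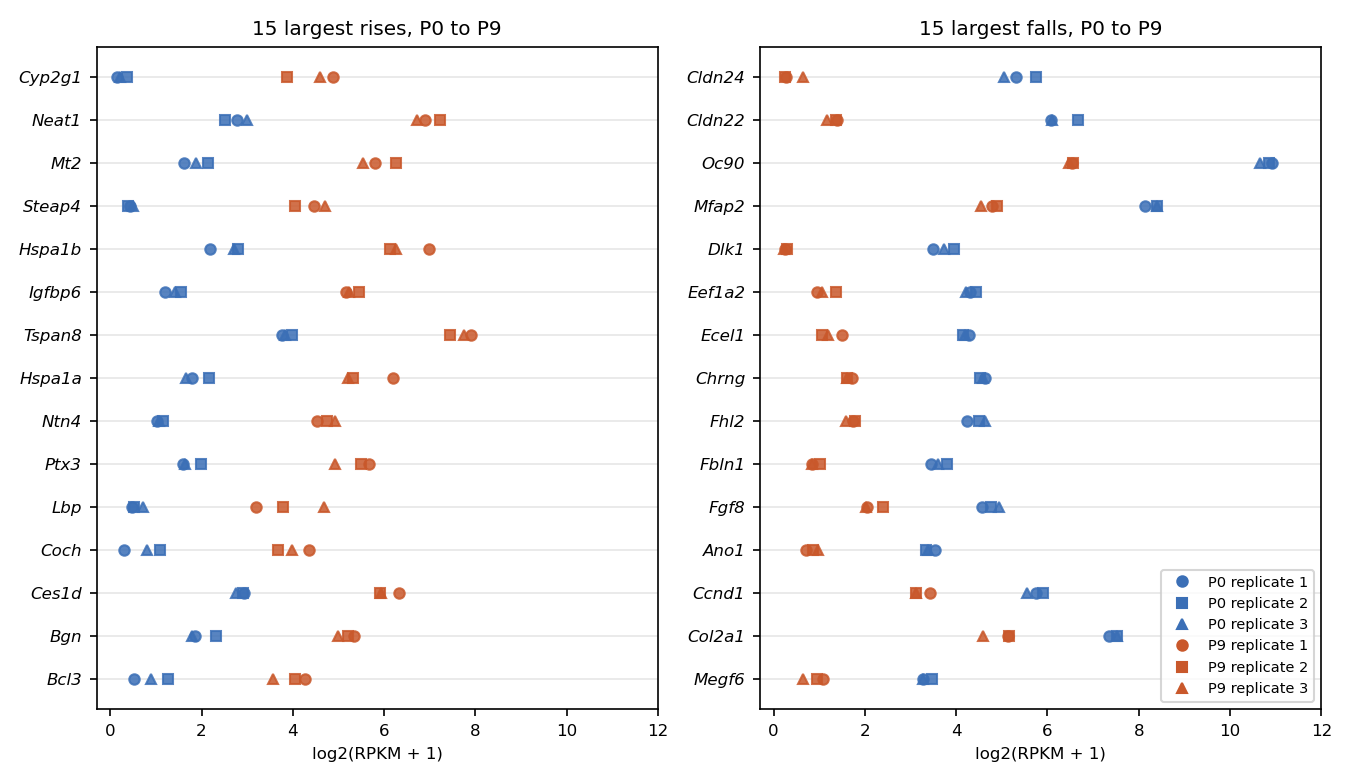
The 15 largest rises and 15 largest falls from P0 to P9 are plotted as log2(RPKM + 1) on the horizontal axis, one row per gene and one symbol per library (blue for P0, orange for P9). In every row the 3 libraries of one age lie apart from the 3 of the other, with mean differences of -4.98 for both Cldn24 and Cldn22 among the falls and 4.21 for Cyp2g1 among the rises.

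Hair cells were described first by a list of transcription factors and other genes tied to their formation, Dll3, Srrm3 and Mgat5b among the latter. Of 22 measured members, 14 fell and 3 rose, with a median difference of -0.47 against -0.041 over all genes. In RNA from a whole epithelium, fewer cells of a type and less RNA per cell cannot be told apart. Atoh1, the basic helix-loop-helix factor that starts hair cell differentiation, was at 38.04, 39.4 and 44.9 RPKM at P0 and 12.4, 13.7 and 14.9 RPKM at P9 (-1.51 ± 0.11, adjusted p = 3.46e-06). Pou4f3, which keeps hair cells alive, was at 116, 123 and 119 RPKM at P0 and 86.05, 83.3 and 89.3 RPKM at P9 (-0.46 ± 0.10, adjusted p = 0.00304), and Gfi1, a repressor downstream of it, at 97.9, 104 and 107 RPKM at P0 and 76.8, 81.01 and 83.01 RPKM at P9 (-0.36 ± 0.10, adjusted p = 0.0130). Gfi1 lost its call without P0 replicate 3 (adjusted p = 0.0610). All 3 lay lower in each P9 library than in any P0 library, and the difference of Atoh1 on the log2 scale was over 3 times that of Pou4f3. Genes found in newly forming hair cells fell with Atoh1. Dll3, a divergent Notch ligand, went from 8.16 ± 0.414 to 1.64 ± 0.422 RPKM, Hes6, a Hes-family regulator of differentiation, from 17.8 ± 1.88 to 5.31 ± 0.775 RPKM, and Nhlh1, a basic helix-loop-helix factor, from 31.3 ± 1.46 to 13.2 ± 1.89 RPKM. The nuclear receptor Esrrb went the other way, at 3.02, 5.14 and 3.32 RPKM at P0 and 10.4, 9.38 and 7.25 RPKM at P9 (1.06 ± 0.17, adjusted p = 7.67e-04). Srrm3 and Mgat5b made up the 3 rises, and both lost their call when libraries were scaled without ribosomal and mitochondrial genes, which left 1.

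The genes of the mechanotransduction complex did not move as one. Of 13 measured, 3 rose and 2 fell, with a median of 0.036. Tmc1, a pore-forming subunit of the transduction channel, was at 5.52, 3.68 and 3.59 RPKM at P0 and 16.98, 16.4 and 14.7 RPKM at P9 (1.71 ± 0.14, adjusted p = 9.57e-06), while its paralog Tmc2 was at 12.1, 8.58 and 9.24 RPKM at P0 and 9.07, 9.03 and 7.85 RPKM at P9 (-0.17 ± 0.13, adjusted p = 0.292). Tmc2 lay above Tmc1 in every P0 library and below it in every P9 library. Cib3, a calcium-binding partner of these channels in vestibular hair cells, was at 62.7, 61.8 and 61.1 RPKM at P0 and 179, 179.5 and 128 RPKM at P9 (1.36 ± 0.14, adjusted p = 3.63e-05), and its relative Cib2 at 87.4, 103 and 89.3 RPKM at P0 and 74.4, 67.7 and 63.7 RPKM at P9 (-0.43 ± 0.11, adjusted p = 0.00863). Pcdh15, the lower strand of the tip link, was at 26.6, 18.1 and 19.95 RPKM at P0 and 13.98, 13.1 and 13.95 RPKM at P9 (-0.60 ± 0.13, adjusted p = 0.00419), and Ush1c, the scaffold harmonin, rose from 245 ± 30.2 to 369.6 ± 20.3 RPKM. Tmie, Lhfpl5, Cdh23, Clrn1, Tomt, Loxhd1 and Myo7a were not called. The genes of the transient ankle links, which are lost from hair bundles as these mature, and of their partners did not move together either. Whrn, the scaffold whirlin, was at 64.8, 52.6 and 64.6 RPKM at P0 and 32.4, 27.2 and 24.8 RPKM at P9 (-1.08 ± 0.13, adjusted p = 9.09e-05), and no P9 library reached a P0 library. Ptprq, the phosphatase of shaft connectors, rose from 86.7 ± 13.1 to 162 ± 10.5 RPKM (0.90 ± 0.13, adjusted p = 2.92e-04). Gpr98, another ankle link gene, went from 7.197 ± 0.488 to 5.798 ± 0.202 RPKM but lost its call when 5 of the 6 libraries were left out in turn, and Pdzd7 was not called.

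Of 41 genes of the stereocilia core and its length control, 12 rose and 12 fell. The rises were led by Dfnb59, the hearing protein pejvakin, at 20.4, 24.8 and 23.02 RPKM at P0 and 83.3, 63.7 and 59.5 RPKM at P9 (1.55 ± 0.14, adjusted p = 1.49e-05). Myo1c, an unconventional myosin, rose from 5.07 ± 0.402 to 12.1 ± 0.687 RPKM, Myo3b, a myosin of stereocilia tips, from 17.2 ± 2.82 to 30.6 ± 2.47 RPKM, and Clic5, a protein of the stereocilia base, from 12.9 ± 0.233 to 20.4 ± 1.69 RPKM. Actin and the small proteins that hold actin monomers fell. Actg1, gamma actin, was at 2331, 2720.4 and 2489 RPKM at P0 and 1277, 1233 and 968 RPKM at P9 (-1.12 ± 0.17, adjusted p = 5.22e-04), and Actb, beta actin, at 903, 1031 and 938 RPKM at P0 and 559, 488 and 339.9 RPKM at P9 (-1.08 ± 0.19, adjusted p = 0.00111). Tmsb10, an actin-sequestering thymosin, fell from 171 ± 31.5 to 67.3 ± 6.86 RPKM. These actin and thymosin genes are expressed in all cells of the epithelium, so their values are not those of the bundle alone. Taperin (Tprn) fell from 7.91 ± 0.724 to 3.83 ± 0.5097 RPKM and the glutaredoxin-like Grxcr2 from 93.8 ± 0.519 to 57.2 ± 2.68 RPKM.

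Channel and calcium genes of hair cells leaned upward. Of 27 measured, 14 rose and 4 fell, with a median of 0.33. But 4 of the 27, Cacna2d4 and Cabp1 among them, were under 5 RPKM in every P0 library, against 1 in every P9 library. Those 4 entered the table through P9 or E17.5, and a gene that passed only through P9 had to be higher there. Cacna2d4, an auxiliary calcium channel subunit, was at 1.16, 0.816 and 1.08 RPKM at P0 and 12.2, 9.53 and 8.72 RPKM at P9 (2.46 ± 0.14, adjusted p = 9.96e-07). Cabp1, a calcium-binding regulator of such channels, was at 1.49, 1.25 and 2.15 RPKM at P0 and 10.8, 12.2 and 15.1 RPKM at P9 (2.39 ± 0.15, adjusted p = 2.20e-06). Mean RPKM at P9 over that at P0 gave ratios of 9.96 and 7.82. The potassium channel subunit Kcnab1 rose from 7.35 ± 0.432 to 21.1 ± 2.06 RPKM. Chrna10, a subunit of the acetylcholine receptor that receives efferent input, rose from 24.1 ± 5.36 to 59.7 ± 5.98 RPKM, and Atp2b2, the calcium pump of stereocilia, from 23.9 ± 3.02 to 45.2 ± 4.14 RPKM. Slc8a1, a sodium-calcium exchanger, fell from 8.38 ± 1.18 to 3.62 ± 0.256 RPKM, and Pcp4, a calmodulin regulator, from 119 ± 6.14 to 67.4 ± 4.64 RPKM. The pore subunit Cacna1d went from 17.5 ± 3.37 to 18.4 ± 0.448 RPKM and was not called.

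Synaptic genes were split evenly, with 7 of 30 higher and 7 lower, a called share of 46.7% near the 45.7% over all genes. The largest rise on the log2 scale was 0.81, that of Syn1, a vesicle phosphoprotein. Its level went from 2.68 ± 0.192 to 5.48 ± 0.898 RPKM, a ratio of means of 2.04. Nptn, the adhesion protein neuroplastin, rose from 104 ± 6.54 to 157 ± 14.1 RPKM. Rab3b, a small GTPase of synaptic vesicles, was at 33.7, 38.1 and 37.1 RPKM at P0 and 8.496, 8.62 and 7.36 RPKM at P9 (-2.03 ± 0.10, adjusted p = 4.65e-07). Syt7, a calcium sensor, fell from 8.65 ± 0.294 to 3.105 ± 0.0196 RPKM, and Cadps2, a priming factor of dense-core vesicles, from 32.6 ± 1.71 to 20.5 ± 1.94 RPKM. The number of fallen genes was unstable. It was 4 without P0 replicate 2, 3 without P0 replicate 3, and 4 without P9 replicate 2 or P9 replicate 3. Genes that mark types and zones of vestibular hair cells moved in both directions, 4 of 12 higher and 7 lower. Spp1, osteopontin, a marker of type I hair cells, was at 475, 611 and 479 RPKM at P0 and 2218, 2132 and 1899 RPKM at P9 (2.0 ± 0.16, adjusted p = 7.93e-06). Adam11, a membrane protein of the same cells, was at 19.8, 13.4 and 23.4 RPKM at P0 and 61.3, 68.5 and 55.7 RPKM at P9 (1.69 ± 0.17, adjusted p = 4.24e-05), and the tau gene Mapt rose from 1.49 ± 0.0563 to 6.96 ± 0.8998 RPKM. Calb2, the calretinin of type II cells and calyx afferents, rose from 41.6 ± 3.93 to 77.5 ± 6.501 RPKM. All of these were higher in each P9 library than in any P0 library. Tectb, a tectorin of the striola (the central zone where bundle polarity reverses), was at 769.9, 699.6 and 630.5 RPKM at P0 and 428, 335 and 299 RPKM at P9 (-0.99 ± 0.16, adjusted p = 7.11e-04). Emx2, the factor that sets bundle polarity on one side of that line, fell from 20.5 ± 3.37 to 9.86 ± 1.22 RPKM. The calcium buffer Ocm, found in striolar hair cells, was at 122, 129 and 118 RPKM at P0 and 132, 118 and 116 RPKM at P9 (-0.015 ± 0.10, adjusted p = 0.918), and its libraries overlapped.

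**Figure D2:**
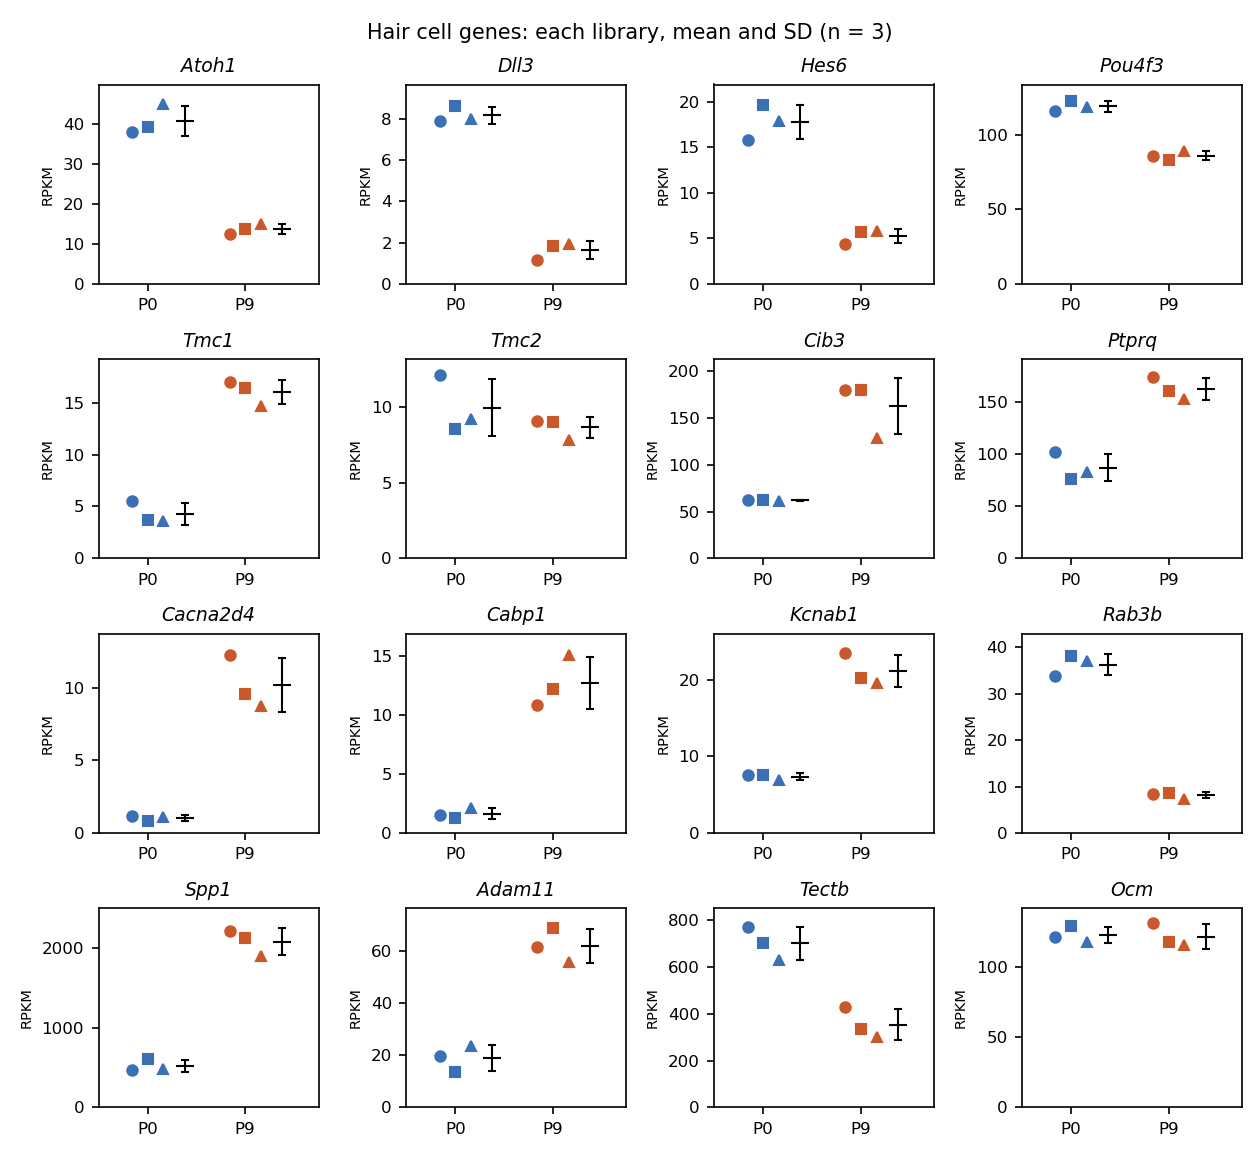
RPKM (vertical axes, from 0) of 16 hair cell genes is plotted by library, with blue symbols for P0, orange symbols for P9, and a black bar for the mean and SD of 3 libraries. Atoh1, Dll3 and Hes6 sit lower at P9, Tmc1 and Cib3 sit higher beside an overlapping Tmc2 (-0.17), and Ocm (-0.015) has overlapping libraries.

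Supporting cell genes divided as well, 12 of 36 higher and 13 lower. Slc6a14, an amino acid transporter, was at 24.1, 23.6 and 18.99 RPKM at P0 and 89.5, 84.97 and 78.1 RPKM at P9 (1.88 ± 0.11, adjusted p = 1.57e-06). Cdh1, E-cadherin, was at 91.3, 103 and 105 RPKM at P0 and 237, 189 and 227 RPKM at P9 (1.11 ± 0.12, adjusted p = 6.47e-05), and Otoa, which anchors the overlying membrane to the cell surface, rose from 165 ± 9.82 to 326 ± 46.7 RPKM. The gap junction genes split by member. Gjb2 and Gjb6, the connexins of inner ear supporting cells, rose from 74.5 ± 5.44 to 152 ± 60.1 RPKM and from 37.1 ± 6.46 to 60.5 ± 15.8 RPKM, while Gja1, connexin 43, fell from 3.75 ± 0.364 to 1.0997 ± 0.0302 RPKM. Gjb6 lost its call without P0 replicate 1 or P9 replicate 2 (adjusted p = 0.0716 and 0.0593). Ano1, a chloride channel, was at 10.5, 9.18 and 9.45 RPKM at P0 and 0.642, 0.827 and 0.953 RPKM at P9 (-2.57 ± 0.12, adjusted p = 2.80e-07). Lgr5, a Wnt-potentiating receptor that marks progenitor-like supporting cells, was at 15.7, 15.4 and 18.4 RPKM at P0 and 6.06, 5.54 and 7.78 RPKM at P9 (-1.24 ± 0.13, adjusted p = 3.94e-05). No P9 library reached the lowest P0 library for either gene. Sox9, Sox10 and the glutamate transporter Slc1a3 were not called, with differences of 0.19, 0.048 and 0.11.

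Signalling pathways were read from ligands to targets. In the Notch pathway, by which hair cells hold their neighbours in the supporting cell fate, 19 of 36 genes fell and 4 rose. The ligand Jag1 was at 18.04, 21.9 and 21.3 RPKM at P0 and 6.48, 7.05 and 5.19 RPKM at P9 (-1.57 ± 0.12, adjusted p = 7.00e-06), and Jag2 fell from 37.96 ± 3.93 to 23.4 ± 3.15 RPKM. The receptor Notch1 was at 21.6, 23.3 and 23.5 RPKM at P0 and 18.2, 16.97 and 16.5 RPKM at P9 (-0.39 ± 0.09, adjusted p = 0.00581). The target Hey1 fell from 17.6 ± 2.05 to 6.16 ± 0.944 RPKM, while the target Hes1 was not called (0.16 ± 0.18, adjusted p = 0.499), and Hes5 was not analysed here. Numb, an inhibitor of the receptor, rose from 17.5 ± 0.782 to 31.5 ± 2.64 RPKM. In the FGF pathway 12 of 20 fell. The ligand Fgf8 was at 22.5, 26.2 and 29.6 RPKM at P0 and 3.14, 4.27 and 3.09 RPKM at P9 (-2.59 ± 0.13, adjusted p = 6.42e-07) and Fgf3 at 3.601, 4.49 and 4.14 RPKM at P0 and 0.465, 0.586 and 0.458 RPKM at P9 (-1.75 ± 0.13, adjusted p = 4.81e-06). The transcriptional targets Etv5 and Etv4 fell from 50.7 ± 4.42 to 15.6 ± 2.34 RPKM and from 11.6 ± 1.17 to 4.75 ± 0.593 RPKM. Ligands and targets alike fell with separated libraries, and the receptor Fgfr1 was the 1 rise, lost without P0 replicate 1 or P9 replicate 3 (0 rises). Under 5 RPKM in every P9 library were 5 of the 20 FGF genes, against 1 in every P0 library. A gene that passed the authors' floor of 5 RPKM only through P0 had to be lower at P9.

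Of 42 Wnt pathway genes 15 fell and 6 rose, a called share of 50% near the 45.7% over all genes. The receptors Lgr4 and Fzd4 fell from 19.9 ± 0.973 to 8.901 ± 0.862 RPKM and from 16.4 ± 0.3203 to 7.91 ± 0.407 RPKM, and the inhibitor Dkk2 from 3.41 ± 0.542 to 0.433 ± 0.0497 RPKM. Lgr6, a relative of Lgr5, went the other way, at 4.19, 6.05 and 4.46 RPKM at P0 and 9.71, 11.05 and 21.1 RPKM at P9 (1.28 ± 0.24, adjusted p = 0.00175). Axin2, the target most used to read out the pathway, was at 10.2, 10.3 and 10.6 RPKM at P0 and 8.71, 8.29 and 12.1 RPKM at P9 (-0.11 ± 0.13, adjusted p = 0.531), and its libraries overlapped. Among 25 genes of planar cell polarity, 7 fell and 3 rose (5 rose without P9 replicate 1). The core genes Vangl2 and Fzd3 fell from 20.2 ± 1.12 to 10.3 ± 2.47 RPKM and from 18.3 ± 2.89 to 8.34 ± 0.603 RPKM, and Celsr2, an atypical cadherin of the same machinery, rose from 19.5 ± 2.92 to 35.6 ± 2.59 RPKM.

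The BMP and TGF-beta pathway gave near equal numbers, 12 higher and 11 lower of 35, but its ligands diverged. Bmp6 was at 3.35, 4.55 and 4.22 RPKM at P0 and 38.9, 32.1 and 34.05 RPKM at P9 (2.84 ± 0.12, adjusted p = 2.03e-07) and Bmp2 at 3.42, 3.93 and 4.48 RPKM at P0 and 12.9, 14.4 and 13.5 RPKM at P9 (1.57 ± 0.11, adjusted p = 3.20e-06). Tgfb2 fell, at 80.2, 81.1 and 76.7 RPKM at P0 and 31.8, 26.9 and 29.1 RPKM at P9 (-1.41 ± 0.10, adjusted p = 3.27e-06), and so did the receptor Tgfbr1, from 13.7 ± 1.21 to 5.88 ± 0.319 RPKM. Both BMP ligands rose while this TGF-beta ligand fell, with no overlap in any of them. Bmp6 and Bmp2 were among 6 of the 35 genes under 5 RPKM in every P0 library, against 2 in every P9 library. Both thus entered the table through P9 or E17.5, and a gene that passed only through P9 had to be higher there. Id1, a BMP target, rose from 13.97 ± 2.29 to 38.9 ± 1.42 RPKM, as did the co-receptor Tgfbr3, from 1.39 ± 0.212 to 7.78 ± 0.597 RPKM. Fstl1, a secreted BMP-binding protein, fell from 162 ± 16.3 to 42.9 ± 3.501 RPKM. In the IGF pathway 8 of 17 fell and 4 rose. The ligand Igf2 was at 9.78, 14.03 and 11.6 RPKM at P0 and 2.93, 3.48 and 2.82 RPKM at P9 (-1.64 ± 0.13, adjusted p = 8.90e-06). Its binding protein Igfbp2 fell from 193 ± 38.7 to 84.4 ± 4.04 RPKM, while Igfbp6 and Igfbp3 rose, the latter from 386 ± 38.8 to 591 ± 89.8 RPKM. In the Hippo pathway 13 of 29 fell and 6 rose, and its DNA-binding TEAD factors moved apart. Tead2 was at 28.1, 35.2 and 32.6 RPKM at P0 and 5.35, 6.32 and 8.07 RPKM at P9 (-2.13 ± 0.14, adjusted p = 2.41e-06), whereas Tead4 rose from 8.27 ± 0.886 to 22.2 ± 6.43 RPKM and Tead1 from 12.3 ± 0.832 to 23.4 ± 9.59 RPKM. Ctgf, a target of these factors, was at 342, 387 and 386 RPKM at P0 and 59.3, 81.4 and 154 RPKM at P9 (-2.02 ± 0.27, adjusted p = 2.47e-04). Of 15 retinoic acid genes, 4 rose and 3 fell, a called share of 46.7% near the 45.7% over all genes. The synthesizing enzyme Aldh1a1 rose from 27.97 ± 5.79 to 91.5 ± 12.6 RPKM and its relative Aldh1a3 fell from 159 ± 17.95 to 85.2 ± 4.699 RPKM.

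Genes of cell division were almost all lower at P9. Of 42 measured mitosis genes, 39 fell, 24 of them by at least 2-fold, and the median difference was -1.14. Of 24 genes of replication and the G1 to S transition, 17 fell and none rose, with a median of -0.66. These genes were already low at birth. Every library of P0 was under 5 RPKM for 27 of the mitosis genes, and every library of P9 for 33, so many of them entered the table through E17.5. For the replication genes these numbers were 11 and 15. In both lists a gene that passed only through P0 had to be lower at P9. Cdk1, the kinase that drives entry into mitosis, was at 5.84, 6.26 and 4.75 RPKM at P0 and 0.415, 0.924 and 0.2198 RPKM at P9 (-2.14 ± 0.18, adjusted p = 1.05e-05). Top2a, the topoisomerase that untangles replicated chromosomes, was at 4.11, 4.46 and 3.998 RPKM at P0 and 0.4795, 0.6504 and 0.423 RPKM at P9 (-1.78 ± 0.13, adjusted p = 3.69e-06), and Hmgb2, a chromatin protein, at 17.7, 27.5 and 21.3 RPKM at P0 and 4.45, 5.63 and 6.28 RPKM at P9 (-1.83 ± 0.16, adjusted p = 1.45e-05). Cdk1 and Top2a were under 1 RPKM in every P9 library. Ccnd1, the cyclin of G1, started from a higher level, 52.8, 58.6 and 46.2 RPKM at P0 and 9.78, 7.63 and 7.7 RPKM at P9 (-2.51 ± 0.12, adjusted p = 5.09e-07), and its partner kinase Cdk4 fell from 122 ± 11.5 to 44.9 ± 1.71 RPKM. The single mitosis gene that rose, Bub3, lost its call without P0 replicate 1 or P0 replicate 3, which left 0. Of 6 measured inhibitors of these kinases and Rb family genes, 1 fell and 0 rose. Cdkn1b, the inhibitor p27, was at 35.1, 36.1 and 38.8 RPKM at P0 and 40.2, 38.8 and 50.04 RPKM at P9 (0.22 ± 0.11, adjusted p = 0.145), and Cdkn1a, Cdkn2d and the Rb family members Rb1 and Rbl2 were not called either. Cdkn2d was called lower with quantile normalization (adjusted p = 0.0393). Cdkn1c, an imprinted inhibitor, was at 87.98, 103 and 85.9 RPKM at P0 and 38.3, 36.6 and 34.1 RPKM at P9 (-1.32 ± 0.11, adjusted p = 8.71e-06) and was the gene that fell.

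The promoters of mitosis genes are shown because many share 2 short motifs. RefSeq promoters (GRCm38.p6, 250 bases before to 50 after the annotated start) could be matched to 34 of the 42 genes. The cell cycle homology region, bound by repressive complexes in resting cells, was searched as TTTGAA on both strands. It was found in 23 of them (67.7%), in 13.2% of the genes in the table with a promoter and in 20.2% of all promoters. The CCAAT box, searched as CCAAT on both strands, was in 26 (76.5%) against 43.3% and 41.1%. Among all genes that fell, the first motif was in 14.5%, close to the table's share. Bub3, the 1 mitosis gene that rose, held both motifs. The promoters of Cdk1 (chr10:69352863-69353162, minus strand) and Top2a (chr11:99024140-99024439, minus strand) are printed 5′ to 3′ along the gene's strand, with each match to TTTGAA or its complement in capitals.
Cdk1: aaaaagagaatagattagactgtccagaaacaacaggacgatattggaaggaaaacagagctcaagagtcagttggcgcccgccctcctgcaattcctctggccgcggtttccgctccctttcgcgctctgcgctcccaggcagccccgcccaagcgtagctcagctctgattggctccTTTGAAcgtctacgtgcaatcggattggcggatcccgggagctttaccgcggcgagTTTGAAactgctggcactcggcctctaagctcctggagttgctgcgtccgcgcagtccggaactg
Top2a: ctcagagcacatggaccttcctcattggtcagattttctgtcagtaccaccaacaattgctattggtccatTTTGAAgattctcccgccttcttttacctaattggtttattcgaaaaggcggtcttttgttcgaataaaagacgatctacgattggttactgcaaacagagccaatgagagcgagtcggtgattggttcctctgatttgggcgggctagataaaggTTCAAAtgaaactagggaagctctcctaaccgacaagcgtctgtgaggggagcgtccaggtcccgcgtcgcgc
Each holds 2 matches, and a match describes these letters only.

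Factors of immature cells and of fetal growth were mostly lower as well. All 3 SoxC genes, transcription factors of young neurons and sensory cells, fell. Sox4 was at 109.7, 118 and 106 RPKM at P0 and 49.5, 46.3 and 54.98 RPKM at P9 (-1.13 ± 0.10, adjusted p = 1.99e-05) and Sox11 at 5.36, 6.01 and 5.47 RPKM at P0 and 0.776, 0.959 and 1.17 RPKM at P9 (-1.75 ± 0.12, adjusted p = 3.50e-06), and Sox12 fell from 22.3 ± 1.28 to 14.1 ± 2.08 RPKM. Of 22 imprinted and fetal growth genes, 13 fell and 4 rose (2 rose without P9 replicate 2), with a median of -0.81. Under 5 RPKM in every P9 library were 5 of the 22, against 2 in every P0 library, and a gene that passed only through P0 had to be lower at P9. H19, the imprinted non-coding RNA, was at 75.4, 87.4 and 94.3 RPKM at P0 and 23.96, 27.1 and 19.3 RPKM at P9 (-1.83 ± 0.14, adjusted p = 5.12e-06), and Nnat, the membrane protein neuronatin, at 34.2, 39.8 and 36.8 RPKM at P0 and 6.83, 6.27 and 6.24 RPKM at P9 (-2.35 ± 0.09, adjusted p = 1.72e-07). Meg3, another imprinted RNA, fell from 149 ± 23.04 to 35.9 ± 9.09 RPKM. The fetal RNA-binding proteins Igf2bp1 and Igf2bp3 fell from 3.47 ± 0.5497 to 0.649 ± 0.0872 RPKM and from 7.61 ± 0.0742 to 2.11 ± 0.168 RPKM. Plagl1, an imprinted zinc finger factor, rose instead, at 12.3, 11.99 and 17.5 RPKM at P0 and 28.01, 30.8 and 36.8 RPKM at P9 (1.15 ± 0.15, adjusted p = 2.04e-04). Of 31 further transcription factors of the ear, 16 fell and 6 rose. Mycn and Mycl1, growth-promoting Myc-family factors, fell from 5.31 ± 0.436 to 1.54 ± 0.135 RPKM and from 28.8 ± 3.004 to 8.996 ± 2.301 RPKM, and Grhl1, a factor of epithelial differentiation, rose from 12.9 ± 1.18 to 23.8 ± 2.88 RPKM.

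Among genes that handle chromatin or make protein, more fell than rose from P0 to P9. Among 57 chromatin regulators, 33 fell and 5 rose, and 3 rose when any one of P0 replicates 1, 2 and 3 or P9 replicates 2 and 3 was left out. Cbx2, a Polycomb protein, was at 14.7, 15.8 and 15.4 RPKM at P0 and 1.89, 2.75 and 4.01 RPKM at P9 (-2.1 ± 0.17, adjusted p = 8.90e-06), and Hmgb3 fell from 47.8 ± 5.85 to 15.3 ± 1.04 RPKM. The DNA methyltransferase Dnmt1, which copies methylation at replication, rose, at 18.3, 17.3 and 18.7 RPKM at P0 and 26.9, 28.1 and 32.3 RPKM at P9 (0.65 ± 0.10, adjusted p = 4.61e-04), and so did Dnmt3a, from 27.5 ± 3.56 to 42.6 ± 4.83 RPKM. Uhrf1, the partner of Dnmt1 at the replication fork, fell from 3.701 ± 0.161 to 1.14 ± 0.0568 RPKM. Ribosomal protein genes, matched by symbol, fell in 78 of 82 cases with a median of -0.99. Their summed share of RPKM was 10.1% to 11.8% at P0 and 5.77% to 5.91% at P9. Rps26 was at 796, 1014 and 849 RPKM at P0 and 317, 268 and 281 RPKM at P9 (-1.61 ± 0.14, adjusted p = 1.53e-05) and Rps19 at 415, 545 and 429 RPKM at P0 and 172, 165 and 169.7 RPKM at P9 (-1.44 ± 0.13, adjusted p = 2.02e-05). Ribosomal proteins have many near-identical pseudogene copies, and how reads were shared among these is not given in the sources used here. Among 82 translation factors and nucleolar genes, 34 fell and 3 rose (1 without P0 replicate 1, P0 replicate 3, P9 replicate 1 or P9 replicate 2). Eef1g and Eef1b2, subunits of an elongation factor complex, fell from 307 ± 39.4 to 134 ± 9.56 RPKM and from 329 ± 69.96 to 122 ± 11.98 RPKM. Of 49 splicing and RNA-binding genes, 22 fell, among them Hnrnpa1, from 304 ± 32.98 to 130.3 ± 11.6 RPKM. Msi1, a translational regulator of progenitors, rose from 117 ± 12.6 to 185 ± 9.38 RPKM. It was the single rise left of 2 whenever any one library was left out. The share called in either direction was 45.1% in the translation list and 49.0% in the splicing list, near the 45.7% over all genes. Their medians were -0.23 and -0.27.

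**Figure D3:**
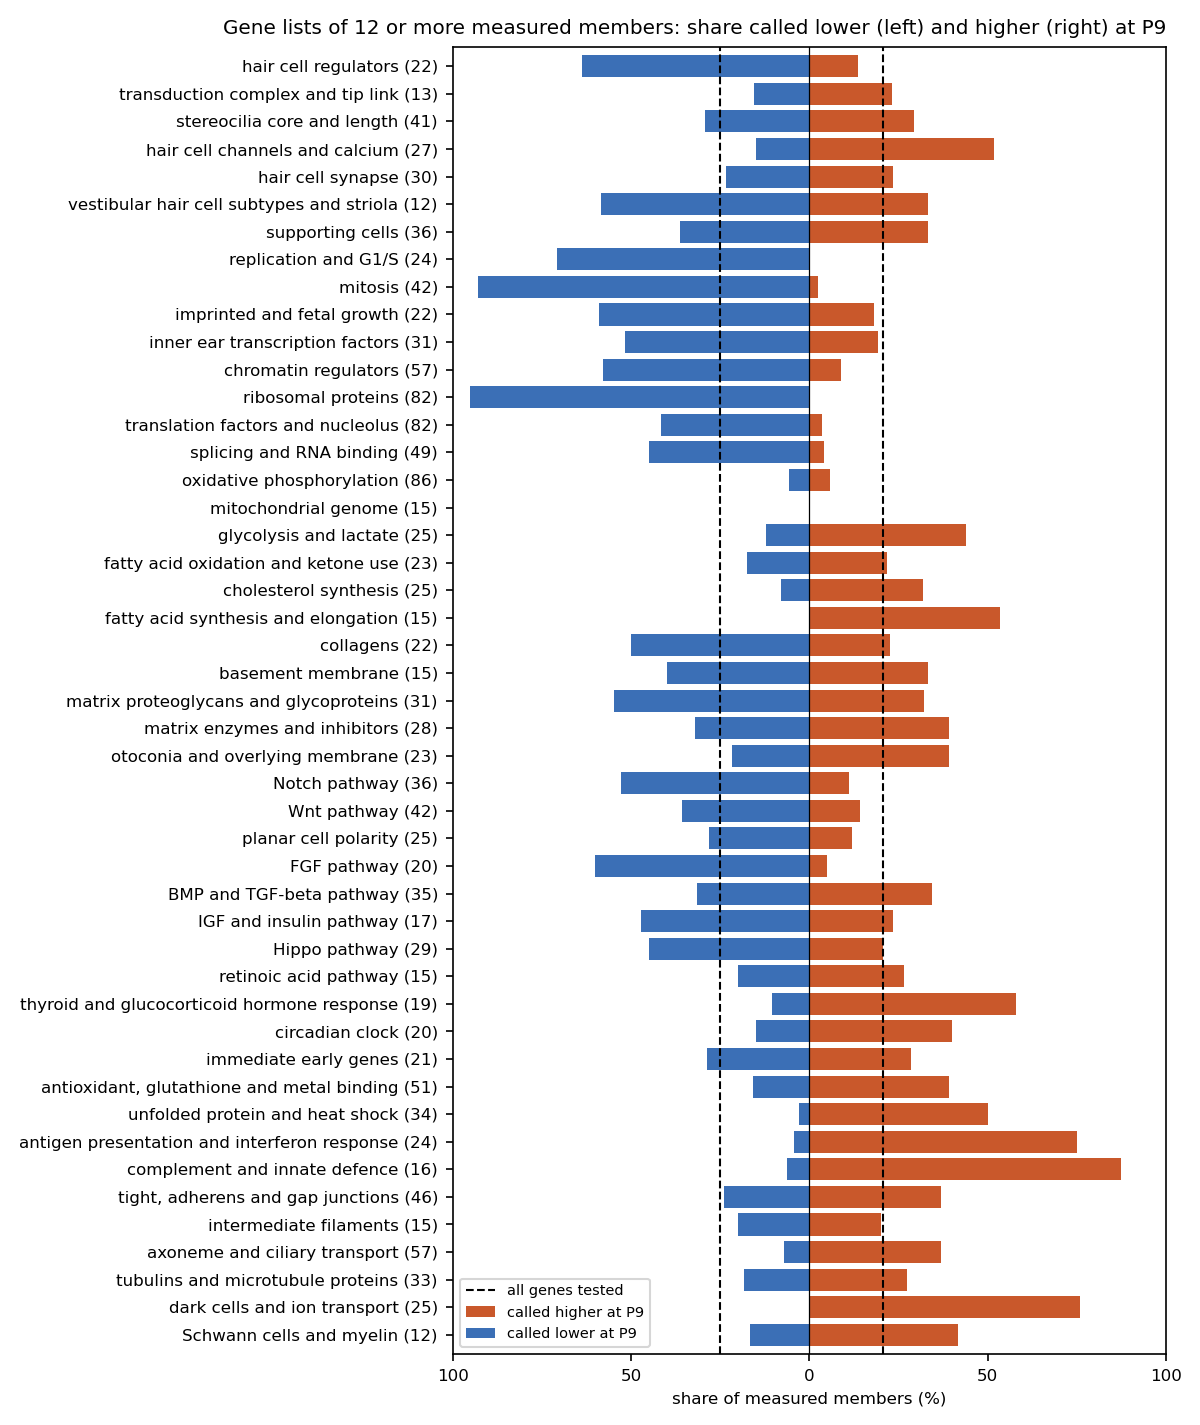
For each gene list of 12 or more measured members (number in brackets), bars give the percent of members that fell (blue, left) and rose (orange, right) from P0 to P9, and dashed lines give the shares over all genes, 25.0% and 20.7%. Ribosomal proteins, mitosis and replication reach furthest to the left, and complement and innate defence, dark cells and ion transport, and antigen presentation reach furthest to the right.

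Genes of the extracellular matrix moved in both directions. Of 22 collagen genes 11 fell and 5 rose, and of 31 proteoglycans and glycoproteins 17 fell and 10 rose. The network collagens of basement membranes moved in opposite directions by pair. Col4a1 was at 41.6, 48.3 and 41.7 RPKM at P0 and 10.7, 11.4 and 11.6 RPKM at P9 (-1.87 ± 0.10, adjusted p = 6.66e-07) and Col4a2 at 22.4, 24.6 and 23.6 RPKM at P0 and 10.3, 10.7 and 10.3 RPKM at P9 (-1.1 ± 0.09, adjusted p = 7.64e-06). Col4a3 was at 0.364, 0.258 and 0.236 RPKM at P0 and 5.86, 5.67 and 4.73 RPKM at P9 (2.32 ± 0.13, adjusted p = 9.13e-07) and Col4a4 at 0.6802, 0.597 and 0.494 RPKM at P0 and 5.75, 5.53 and 4.47 RPKM at P9 (1.97 ± 0.13, adjusted p = 2.58e-06). In each pair, whose genes lie head to head in the genome, both genes moved the same way and the libraries of the ages were separate. Col4a3 and Col4a4 were among 4 of the 22 collagens under 5 RPKM in every P0 library, against 7 in every P9 library. Both thus entered the table through P9 or E17.5, and a gene that passed only through P9 had to be higher there. Col4a5, which joins the second pair in one network, was at 12.2, 14.5 and 11.97 RPKM at P0 and 14.9, 14.9 and 13.1 RPKM at P9 and was not called. Col2a1, the collagen of cartilage and of embryonic inner ear epithelium, fell from 176 ± 12.9 to 30.6 ± 6.57 RPKM.

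Basement membrane genes other than the collagens, among them laminins, heparan sulfate proteoglycans and laminin receptors, also moved in both directions. Of 15 measured 5 rose and 6 fell. Lamb1 and Lama4 fell, at 20.6, 22.9 and 20.4 RPKM at P0 and 6.85, 6.02 and 6.77 RPKM at P9 (-1.56 ± 0.10, adjusted p = 1.62e-06) and from 4.69 ± 0.278 to 1.15 ± 0.184 RPKM. Lamb2 rose, at 21.4, 21.5 and 19.1 RPKM at P0 and 41.1, 39.4 and 39.6 RPKM at P9 (0.92 ± 0.09, adjusted p = 3.28e-05). The beta chains diverged, since Lamb1 was near Lamb2 at P0 and lay below it in every P9 library. Itga6, a laminin receptor subunit, fell from 67.2 ± 3.63 to 20.5 ± 2.97 RPKM. Fbn2, the fibrillin of fetal tissue, was at 26.6, 27.002 and 25.04 RPKM at P0 and 4.44, 5.17 and 4.17 RPKM at P9 (-2.29 ± 0.10, adjusted p = 2.14e-07), Fbln1 fell from 11.3 ± 1.502 to 0.863 ± 0.134 RPKM, and Mfap4 from 30.8 ± 5.39 to 4.99 ± 0.597 RPKM. Fbln2 rose, at 3.49, 5.62 and 4.66 RPKM at P0 and 34.02, 30.3 and 31.9 RPKM at P9 (2.58 ± 0.14, adjusted p = 6.76e-07). Bgn, the small proteoglycan biglycan, was at 2.63, 4.004 and 2.48 RPKM at P0 and 39.2, 36.1 and 30.6 RPKM at P9 (3.18 ± 0.15, adjusted p = 3.72e-07), and its relatives Fmod and Chad rose from 0.856 ± 0.109 to 4.91 ± 0.0897 RPKM and from 2.68 ± 0.0478 to 13.4 ± 0.984 RPKM. Of 28 matrix enzymes and inhibitors, 11 rose and 9 fell. Timp1, an inhibitor of metalloproteinases, was at 4.93, 5.73 and 5.17 RPKM at P0 and 34.5, 32.3 and 38.98 RPKM at P9 (2.53 ± 0.10, adjusted p = 1.72e-07). Sulf1 and Sulf2, paired enzymes that trim heparan sulfate, went apart, Sulf1 rising from 20.3 ± 2.17 to 47.2 ± 4.47 RPKM and Sulf2 falling from 3.69 ± 0.404 to 1.12 ± 0.109 RPKM.

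Genes of otoconia and the overlying membrane moved in both directions. Of 23 measured, 9 rose and 5 fell. Beside Oc90, Otop1, a proton channel required for otoconia, was at 40.5, 48.02 and 46.8 RPKM at P0 and 22.9, 20.1 and 20.8 RPKM at P9 (-1.05 ± 0.10, adjusted p = 3.05e-05). Nox3, the oxidase also required for them, rose, at 7.25, 9.92 and 4.71 RPKM at P0 and 20.4, 17.1 and 17.9 RPKM at P9 (1.28 ± 0.20, adjusted p = 5.24e-04), and Noxo1, its organizer, rose from 8.49 ± 1.84 to 16.2 ± 1.37 RPKM. Otol1, an otoconial collagen, went from 457 ± 69.03 to 402 ± 36.1 RPKM and was not called. Car2, a carbonic anhydrase, rose from 12.2 ± 1.81 to 30.6 ± 0.9797 RPKM, and the glycoproteins Otog and Otogl rose from 391 ± 34.8 to 607 ± 74.9 RPKM and from 51.6 ± 7.19 to 81.2 ± 8.73 RPKM.

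**Figure D4:**
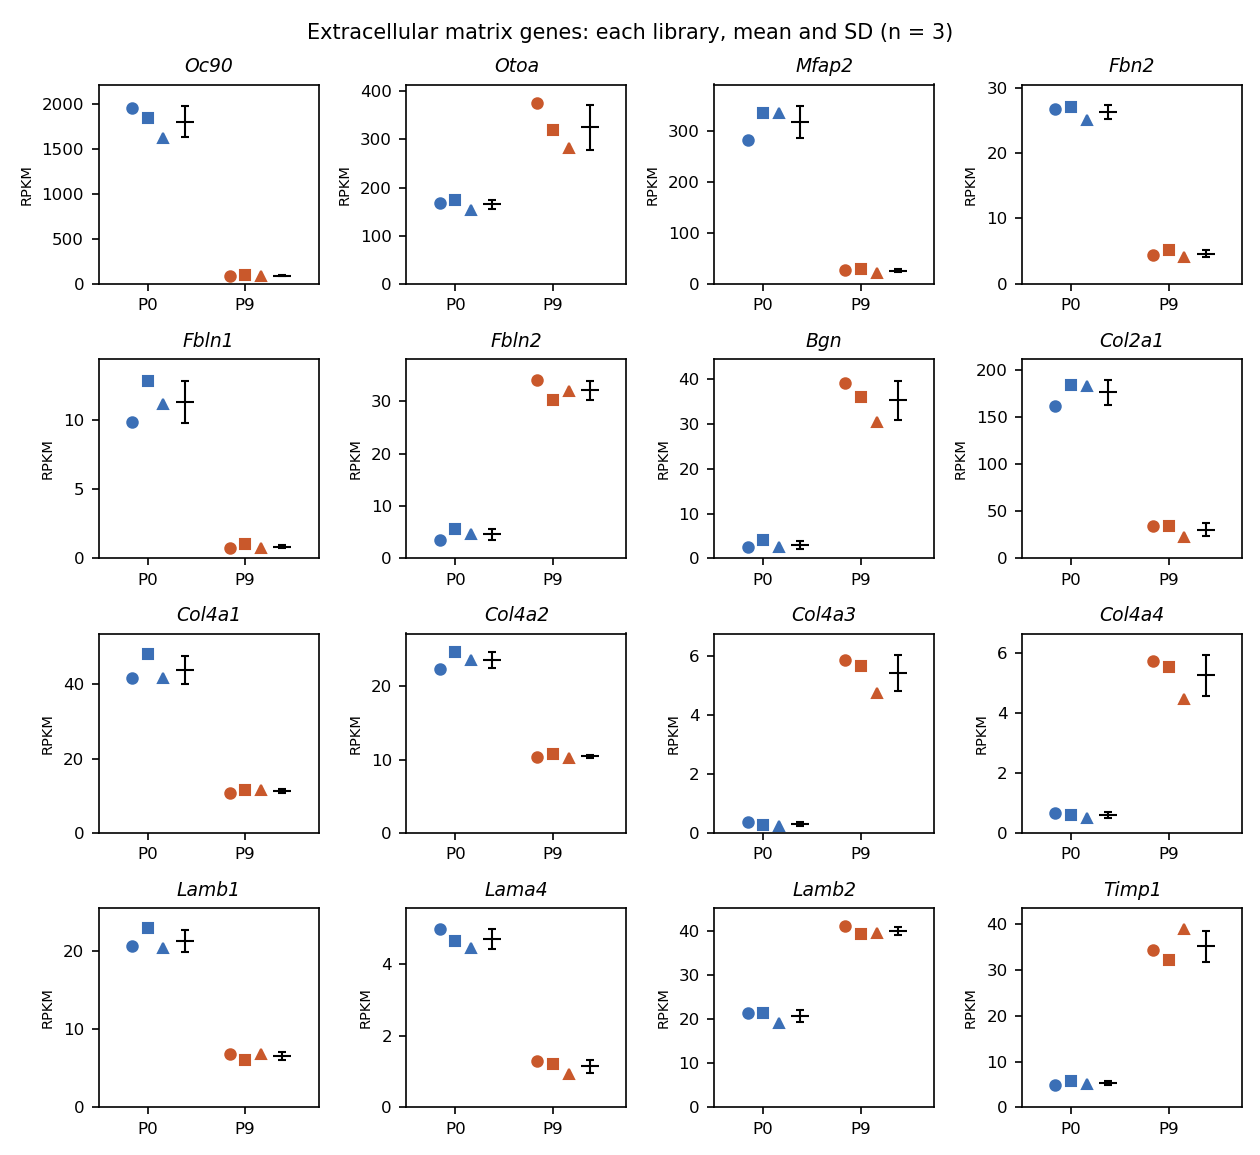
RPKM (vertical axes, from 0) of 16 matrix genes is plotted by library, with blue symbols for P0, orange symbols for P9, and a black bar for the mean and SD of 3 libraries. Col4a1, Col4a2, Lamb1 and Lama4 sit lower at P9, Col4a3, Col4a4, Lamb2 and Timp1 sit higher, and Oc90 falls from 1800.3 ± 169.7 to 91.1 ± 3.17 RPKM.

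The epithelium's ion transport genes leaned upward, and more of its junction and cilium genes rose than fell. Of 46 junction genes 17 rose and 11 fell, with a median of 0.16. Changes of at least 2-fold in this list were mostly falls, 6 against 1 rise. The cadherins diverged, since Cdh1 rose while Cdh3, P-cadherin, was at 31.2, 37.1 and 34.9 RPKM at P0 and 8.61, 7.44 and 6.29 RPKM at P9 (-2.07 ± 0.12, adjusted p = 1.11e-06) and Cdh4 fell from 40.9 ± 2.89 to 16.1 ± 1.26 RPKM. Cdh2, N-cadherin, fell from 55.8 ± 5.25 to 29.6 ± 11.4 RPKM. Ion transport genes, several of them markers of the dark cells that secrete potassium into endolymph, rose in 19 of 25 cases and none fell, with a median of 0.80, but 6 of the 25 were under 5 RPKM in every P0 library and so entered the table through P9 or E17.5. Fxyd3, a regulator of the sodium-potassium pump, was at 35.8, 44.1 and 37.2 RPKM at P0 and 240.0, 273 and 253 RPKM at P9 (2.68 ± 0.11, adjusted p = 2.03e-07). Kcne1, a potassium channel subunit of dark cells, was at 3.05, 5.9002 and 3.93 RPKM at P0 and 24.6, 21.4 and 20.1 RPKM at P9 (2.15 ± 0.17, adjusted p = 8.66e-06), and its partner Kcnq1 rose from 7.83 ± 0.236 to 13.6 ± 2.22 RPKM. Kcne1 was low in all P0 libraries and no P9 library overlapped them. The pump subunit Atp1b2 rose from 64.8 ± 4.61 to 203 ± 13.3 RPKM and the water channel Aqp4 from 1.82 ± 0.401 to 5.49 ± 0.592 RPKM. Slc12a2, the chloride cotransporter of dark cells, was not called (0.21 ± 0.14, adjusted p = 0.239). The part of dark cells left on the dissected tissue was not tested. Of 57 genes of axonemes and ciliary transport, 21 rose and 4 fell (2 without P0 replicate 1), with a median of 0.13. Only 1 of these rises was of at least 2-fold, and the called share of 43.9% was near the 45.7% over all genes. Dnaic1, a dynein chain of motile cilia, was at 9.56, 6.97 and 7.48 RPKM at P0 and 22.5, 19.8 and 17.99 RPKM at P9 (1.23 ± 0.13, adjusted p = 4.20e-05), and Dnahc11 rose from 10.1 ± 1.98 to 20.9 ± 1.91 RPKM. Among 33 tubulin and microtubule genes 9 rose and 6 fell, a called share of 45.5% near the 45.7% over all genes. Tubb2b, the beta tubulin of immature neural cells, was at 73.9, 92.8 and 80.9 RPKM at P0 and 38.96, 29.2 and 18.8 RPKM at P9 (-1.53 ± 0.21, adjusted p = 2.91e-04), while Tubb4b rose from 104 ± 9.204 to 241 ± 53.3 RPKM.

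In energy metabolism, glycolytic genes leaned upward and few respiratory genes were called. Of 25 glycolytic genes 11 rose and 3 fell, with a median of 0.27. Hk1, the first enzyme of the pathway, was at 23.7, 23.8 and 22.8 RPKM at P0 and 51.4, 50.002 and 53.8 RPKM at P9 (1.11 ± 0.09, adjusted p = 7.64e-06), and Eno2, the enolase of neurons and other electrically active cells, at 34.7, 30.3 and 36.1 RPKM at P0 and 70.9, 81.5 and 74.1 RPKM at P9 (1.14 ± 0.11, adjusted p = 2.06e-05). Ldha, lactate dehydrogenase, rose from 81.4 ± 5.01 to 140.1 ± 16.9 RPKM and the glucose transporter Slc2a1 from 62.2 ± 15.9 to 143 ± 22.7 RPKM. Of 86 nuclear genes of oxidative phosphorylation, 5 rose and 5 fell. The number that rose went from 1 without P0 replicate 1 to 11 without P0 replicate 2, and was 2 without P0 replicate 3 or P9 replicate 1, 3 without P9 replicate 2 and 8 without P9 replicate 3. Cox7a1, an isoform of a cytochrome oxidase subunit found in heart and muscle, was at 3.42, 3.86 and 2.55 RPKM at P0 and 11.5, 11.9 and 9.01 RPKM at P9 (1.47 ± 0.14, adjusted p = 2.97e-05). Cox7a2l, its supercomplex-associated relative, fell from 128 ± 21.9 to 71.1 ± 5.13 RPKM. None of the 15 transcripts of the mitochondrial genome was called, with a median of -0.34 that became 0.019 with quantile normalization, under which 4 of them rose. With scaling by the sum without ribosomal and mitochondrial genes 3 fell, and 2 fell in the fit of all 9 libraries and 2 without the intensity trend. The replicate block and the fit without P9 replicate 2 each gave 1 fall. Fatty acid synthesis and elongation genes rose in 8 of 15 cases, led by Elovl7, an elongase of long-chain fatty acids, at 2.96, 3.07 and 2.95 RPKM at P0 and 10.7, 10.3 and 14.4 RPKM at P9 (1.66 ± 0.13, adjusted p = 6.32e-06). Fads3, a desaturase, rose from 2.74 ± 0.171 to 8.34 ± 0.655 RPKM. Elovl7 and Fads3 were the 2 of the 15 under 5 RPKM in every P0 library, against 0 in every P9 library. Both thus entered the table through P9 or E17.5, and a gene that passed only through P9 had to be higher there. Cholesterol synthesis rested on single libraries. Of 25 genes 8 rose and 2 fell, but the rises were 4 without P0 replicate 1 or P0 replicate 3, 5 without P9 replicate 1 (with 6 falls) and 13 without P9 replicate 3. Fdft1, squalene synthase, was among the rises, from 32.02 ± 3.33 to 57.3 ± 15.2 RPKM.

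Of 19 genes responsive to thyroid hormone or glucocorticoids, 11 rose and 2 fell. The metallothioneins Mt1 and Mt2, which bind zinc and copper and respond to glucocorticoids and metals, were at 7.06, 9.37 and 9.17 RPKM at P0 and 61.6, 76.9 and 63.7 RPKM at P9 (2.85 ± 0.13, adjusted p = 2.78e-07) and at 2.07, 3.43 and 2.65 RPKM at P0 and 55.1, 76.2 and 45.1 RPKM at P9 (3.99 ± 0.19, adjusted p = 3.72e-07). Sgk1, a kinase induced by corticosteroids, rose from 40.1 ± 4.85 to 101 ± 20.9 RPKM, and Klf9, a target of thyroid and glucocorticoid receptors, from 15.3 ± 0.824 to 32.9 ± 8.22 RPKM. Fkbp5, a co-chaperone that glucocorticoids also induce, fell, at 2.65, 3.51 and 3.25 RPKM at P0 and 1.02, 1.09 and 0.858 RPKM at P9 (-1.05 ± 0.13, adjusted p = 1.49e-04). Crym, a thyroid hormone binding protein, fell from 11.4 ± 1.83 to 4.18 ± 1.097 RPKM. The members known as glucocorticoid targets therefore did not all move one way. Among 51 antioxidant, glutathione and metal-binding genes 20 rose and 8 fell. Sod3, the secreted superoxide dismutase, was at 6.35, 7.89 and 5.79 RPKM at P0 and 40.4, 33.9 and 36.3 RPKM at P9 (2.31 ± 0.12, adjusted p = 6.66e-07), and Slc39a8, a zinc transporter, rose from 1.87 ± 0.3297 to 12.7 ± 1.67 RPKM.

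Heat shock and unfolded protein genes rose in 17 of 34 cases and fell in 1, with a median of 0.38. The inducible chaperones Hspa1b and Hspa1a were at 3.55, 5.93 and 5.597 RPKM at P0 and 126, 69.2 and 75.9 RPKM at P9 (3.9 ± 0.22, adjusted p = 1.11e-06) and at 2.44, 3.502 and 2.17 RPKM at P0 and 72.2, 39.1 and 35.8 RPKM at P9 (3.7 ± 0.24, adjusted p = 2.03e-06). Their promoters are identical at 296 of 300 bases and their coding sequences are near copies, so reads cannot be assigned to one or the other with confidence. Hspb1, a small heat shock protein, was at 22.6, 41.7 and 26.6 RPKM at P0 and 223, 199 and 268 RPKM at P9 (2.92 ± 0.20, adjusted p = 3.29e-06), and Hsph1, a nucleotide exchange partner of these chaperones, rose from 41.9 ± 1.36 to 112 ± 9.32 RPKM. P9 replicate 1 was the highest library for Hspa1a and Hspa1b and P9 replicate 3 for Hspb1, and no P9 library overlapped P0. Chac1, a target of the unfolded protein response, was the one gene that fell, from 4.37 ± 0.8105 to 1.66 ± 0.3401 RPKM, and 2 fell without P0 replicate 3. Immediate early genes gave 6 rises and 6 falls among 21 (3 falls without P0 replicate 2). Fos was at 8.21, 8.42 and 9.19 RPKM at P0 and 93.4, 77.9 and 46.8 RPKM at P9 (2.88 ± 0.21, adjusted p = 4.00e-06) and Zfp36, which destabilizes cytokine messages, rose from 26.1 ± 4.48 to 81.4 ± 18.2 RPKM, whereas Egr3 fell from 3.101 ± 0.551 to 1.03 ± 0.241 RPKM. The time from death to RNA extraction is not given in the labels, and its part in these chaperone and immediate early values was not tested.

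Promoters of this group are shown for the metallothioneins and the chaperones, the genes with the largest rises in it. RefSeq promoters of the same window and build were matched to 42 of the 51 antioxidant and metal-binding genes. The metal response element was searched as TGCACNC or TGCGCNC on both strands. It was in 33.3% of them, in 42.3% of genes in the table with a promoter and in 28.2% of all promoters. Of the list's matched members, 6 of 17 that rose and 4 of 6 that fell held it. Mt1 (chr8:94178839-94179138, plus strand) holds 3 matches and Mt2 (chr8:94172368-94172667, plus strand) holds 4, and each match is in capitals.
Mt1: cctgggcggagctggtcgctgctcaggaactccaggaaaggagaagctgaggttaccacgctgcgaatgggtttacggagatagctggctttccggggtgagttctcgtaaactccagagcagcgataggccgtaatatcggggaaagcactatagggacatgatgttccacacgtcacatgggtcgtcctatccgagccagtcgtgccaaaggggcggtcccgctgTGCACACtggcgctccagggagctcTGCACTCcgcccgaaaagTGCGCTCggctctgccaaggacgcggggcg
Mt2: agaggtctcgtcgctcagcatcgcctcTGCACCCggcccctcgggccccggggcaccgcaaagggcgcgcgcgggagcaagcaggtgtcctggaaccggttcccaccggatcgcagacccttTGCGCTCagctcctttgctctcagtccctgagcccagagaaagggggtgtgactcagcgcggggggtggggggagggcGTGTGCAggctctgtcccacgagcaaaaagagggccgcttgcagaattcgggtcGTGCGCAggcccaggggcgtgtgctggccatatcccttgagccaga
The heat shock element was searched as GAANNTTC, a palindromic core, a motif chosen after the values were seen. It was in 9 of 28 matched members (32.1%), in 7 of the 15 of them that rose, in 6.84% of genes in the table with a promoter and in 9.04% of all promoters. Hspa1b (chr17:34959189-34959488, minus strand) holds 1 match and Hspb1 (chr5:135887669-135887968, plus strand) holds 2, in capitals.
Hspa1b: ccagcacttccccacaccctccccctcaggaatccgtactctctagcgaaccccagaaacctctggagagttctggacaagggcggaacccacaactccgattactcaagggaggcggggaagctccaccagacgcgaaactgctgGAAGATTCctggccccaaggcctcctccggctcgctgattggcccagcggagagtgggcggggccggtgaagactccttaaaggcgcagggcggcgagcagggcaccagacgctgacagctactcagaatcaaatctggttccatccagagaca
Hspb1: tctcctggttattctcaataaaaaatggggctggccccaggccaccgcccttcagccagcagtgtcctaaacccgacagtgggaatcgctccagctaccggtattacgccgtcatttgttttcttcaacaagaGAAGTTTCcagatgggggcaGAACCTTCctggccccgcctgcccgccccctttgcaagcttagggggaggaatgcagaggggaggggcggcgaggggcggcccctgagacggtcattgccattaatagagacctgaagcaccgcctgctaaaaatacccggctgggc
All 4 genes rose, and the letters alone do not show that a factor was bound.

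Clock genes rose in 8 of 20 cases and fell in 3. Nr1d1, the repressor REV-ERB alpha, was at 7.87, 9.15 and 11.01 RPKM at P0 and 60.1, 40.1 and 47.8 RPKM at P9 (2.27 ± 0.16, adjusted p = 3.23e-06). Bhlhe40, which represses clock activators, was at 3.2996, 4.59 and 8.36 RPKM at P0 and 28.1, 32.9 and 25.1 RPKM at P9 (2.28 ± 0.24, adjusted p = 4.22e-05), and Dbp, an output factor, rose from 3.73 ± 0.248 to 12.98 ± 0.581 RPKM. Per1, a core repressor, was at 19.6, 19.2 and 21.3 RPKM at P0 and 19.3, 18.2 and 19.7 RPKM at P9 and was not called. Hlf, a relative of Dbp, fell from 4.93 ± 0.264 to 3.17 ± 0.445 RPKM. The hour of collection is not given in the labels, so hour and age cannot be told apart for these genes.

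Genes of defence rose together. Of 24 antigen presentation and interferon-response genes 18 rose and 1 fell, with a median of 0.96. Of 16 genes of complement and innate defence 14 rose and 1 fell, with a median of 0.81. At P0 every library was under 5 RPKM for 10 genes of the first list and 8 of the second, so those passed the authors' floor through P9 or E17.5, and a gene that passed only through P9 had to be higher there. Tap2, which loads peptides into the endoplasmic reticulum, was at 1.397, 1.07 and 1.16 RPKM at P0 and 7.26, 5.68 and 6.11 RPKM at P9 (1.73 ± 0.12, adjusted p = 4.22e-06), and B2m, the light chain of class I molecules, at 55.1, 69.3 and 62.1 RPKM at P0 and 153, 109 and 143 RPKM at P9 (1.1 ± 0.14, adjusted p = 1.92e-04). Ifi35, an interferon-induced protein, rose from 3.096 ± 0.366 to 19.3 ± 3.49 RPKM, and Ifitm2, a membrane protein of the same response, fell from 36.6 ± 6.39 to 15.4 ± 1.05 RPKM. Ptx3, a soluble pattern recognition protein, was at 2.004, 2.96 and 2.11 RPKM at P0 and 49.9, 43.8 and 29.4 RPKM at P9 (3.62 ± 0.18, adjusted p = 5.82e-07). Lbp, which binds bacterial lipopolysaccharide, was at 0.392, 0.435 and 0.649 RPKM at P0 and 8.12, 12.8 and 24.6 RPKM at P9 (3.31 ± 0.30, adjusted p = 1.68e-05), and Lcn2, an iron-withholding lipocalin, rose from 0.5999 ± 0.0598 to 11.2 ± 4.81 RPKM. The fall in the second list, Cx3cl1, lost its call without P0 replicate 2, P0 replicate 3 or P9 replicate 2 (0 falls), and 2 fell without P0 replicate 1 or P9 replicate 3. Leukocyte markers beside these values were few. Of the 25 searched, 2 were in the table. Cd68, of macrophages, was at 1.33, 1.47 and 2.08 RPKM at P0 and 6.34, 3.95 and 6.3001 RPKM at P9 (1.3 ± 0.18, adjusted p = 2.35e-04), and Ighm, the heavy chain of immunoglobulin M, at 23.1, 13.8 and 28.2 RPKM at P0 and 298, 90.8 and 83.6 RPKM at P9 (2.6 ± 0.43, adjusted p = 7.86e-04). Ighm was highest in P9 replicate 1, about 3 times the other P9 libraries. The part of leukocytes in the defence genes was not tested.

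The interferon-stimulated response element was searched in the same promoters as GAAANNGAA on both strands. It was in 10 of 19 matched genes of the antigen presentation and interferon list (52.6%) and in 7.94% of genes in the table. Among all genes that rose it was in 8.91%, and among the list's matched members that rose it was in 6 of 13. Ifitm2, the 1 member that fell, held it too. Clock genes held the E-box CACGTG in 4 of 15 matched cases, against 12.2% in the table.

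**Figure D5:**
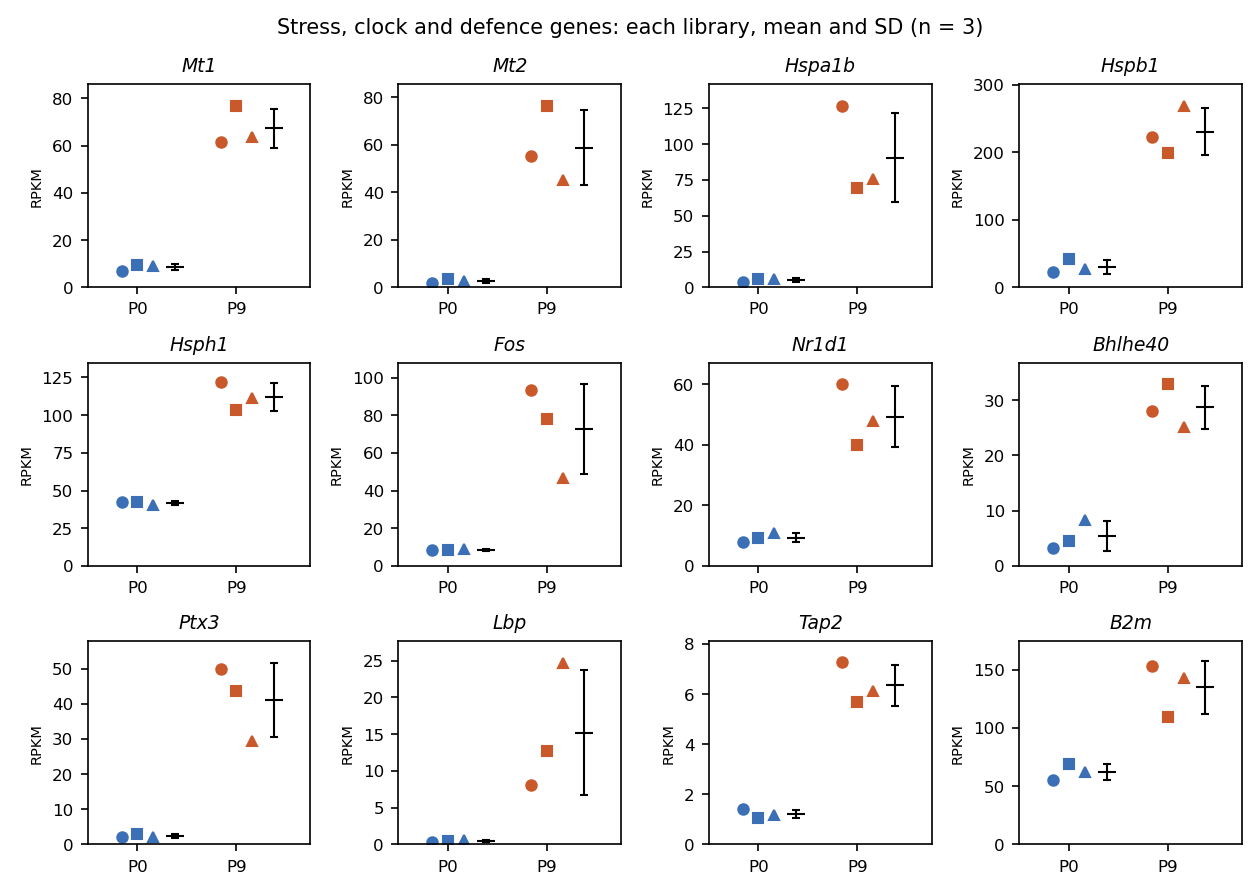
RPKM (vertical axes, from 0) of 12 stress, clock and defence genes is plotted by library, with blue symbols for P0, orange symbols for P9, and a black bar for the mean and SD of 3 libraries. In every panel the P9 libraries lie above the P0 libraries, and Mt2 (3.99) and Hspa1b (3.9) have the largest log2 differences of the 12.

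Markers of other cells in or under the epithelium moved with age as well. Of 31 mesenchymal markers searched, 9 were measured, 3 rose and 5 fell, and their summed level was 66.1, 86.3 and 65.2 RPKM at P0 and 114, 94.02 and 100.3 RPKM at P9. Coch, the cochlin of the inner ear stroma, was at 0.239, 1.14 and 0.739 RPKM at P0 and 19.4, 11.7 and 14.9 RPKM at P9 (3.27 ± 0.21, adjusted p = 2.55e-06), while Dcn, decorin, fell from 5.75 ± 0.619 to 2.41 ± 0.416 RPKM. The fibroblast collagen Col1a2 rose but was low at both ages, at 0.773, 1.22 and 0.984 RPKM at P0 and 2.57, 2.95 and 2.38 RPKM at P9 (0.87 ± 0.14, adjusted p = 6.45e-04). Of 24 Schwann cell and myelin markers 12 were measured, 5 rose and 2 fell, with a summed level of 442, 557 and 488 RPKM at P0 and 706, 574 and 685 RPKM at P9. Gldn, which gathers sodium channels at nodes, was at 1.28, 0.897 and 1.13 RPKM at P0 and 9.54, 7.82 and 7.65 RPKM at P9 (2.15 ± 0.13, adjusted p = 1.21e-06). Of 28 neuronal markers 11 were measured, 5 rose and 1 fell, with a summed level of 270.2, 280.4 and 263 RPKM at P0 and 265, 244 and 239 RPKM at P9. Under 5 RPKM in every P0 library were 4 of these 11 and 3 of the 12 Schwann cell markers, against 0 and 1 in every P9 library. Members low throughout P0 entered the table through P9 or E17.5, and a gene that passed only through P9 had to be higher there. Uchl1, a neuronal ubiquitin hydrolase, was at 33.3, 45.6 and 43.2 RPKM at P0 and 10.3, 10.2 and 9.93 RPKM at P9 (-1.89 ± 0.12, adjusted p = 2.00e-06), and Ntrk2, the receptor of BDNF, rose from 3.09 ± 0.219 to 8.67 ± 0.761 RPKM.

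Muscle markers fell in 3 of 4 measured cases, with a summed level of 137, 157 and 139.9 RPKM at P0 and 77.5, 74.7 and 62.2 RPKM at P9. Under 5 RPKM in every P9 library were 2 of the 4, against 0 in every P0 library, and a gene that passed only through P0 had to be lower at P9. Actc1, cardiac actin, was at 4.37, 5.08 and 4.53 RPKM at P0 and 0.0678, 0 and 0.0346 RPKM at P9 (-2.45 ± 0.13, adjusted p = 6.68e-07), and Tagln, the smooth muscle protein transgelin, at 9.35, 12.3 and 14.2 RPKM at P0 and 1.503, 1.69 and 1.41 RPKM at P9 (-2.33 ± 0.14, adjusted p = 1.57e-06). The acetylcholine receptor subunit Chrng, among the largest falls, belongs to immature muscle, and the part of muscle in these values was not tested. Erythroid markers summed to 28.4, 48.03 and 43.3 RPKM at P0 and 44.2, 104 and 39.3 RPKM at P9, with the alpha globin Hba-a1 at 5.35, 14.9 and 14.1 RPKM at P0 and 9.76, 43.2 and 9.48 RPKM at P9, so P9 replicate 2 held the most globin. The globins were not called. Melanocyte markers rose in 2 of 4 cases, with Pmel, a pigment granule protein, at 3.36, 4.35 and 3.41 RPKM at P0 and 9.88, 8.06 and 9.71 RPKM at P9 (1.12 ± 0.12, adjusted p = 5.72e-05). Ednrb, the melanocyte marker that fell, lost its call without P0 replicate 1 or P9 replicate 2 (0 falls).

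Some genes named here overlap another measured gene on the opposite strand in GENCODE vM21, and the strand rule of the authors' counting is not given in the sources used here. They are Bmp6 (with Txndc5), Cacna1d (Chdh), Cdk4 (Tspan31), Noxo1 (Tbl3), Nr1d1 (Thra), Dbp (Sphk2), Fdft1 (Ctsb), Ctgf (Gm15270), Rbl2 (Aktip) and Cldn22 (Wwc2), and their values may include reads of the partner.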

How the data were processed

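RNA from the utricular sensory epithelium of Swiss Webster mice was sequenced at P0 and P9, with 3 libraries per age, and the E17.5 libraries of the series entered one alternative only. The authors' deposited table holds RPKM values, that is read counts scaled by the authors to gene length and library size, for genes that reached 5 RPKM in at least 1 of the 9 libraries, as tested on the table. Per the submitters' processing notes, build mm8 and the software Partek were used. For the aligner, gene annotation, gene lengths and counting rule the entry is: not given in the sources used here. Reads per gene were therefore not recovered. Alignments per library, per the file headers, were 53365510 to 64417934.

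Values were analysed as log2(RPKM + 1) in limma 3.58.1 (R 4.3.3) with a mean per age over the 6 libraries and empirical Bayes moderation with an intensity trend. The threshold for a call was an adjusted p (Benjamini-Hochberg, over 10102 genes) under 0.05. With 3 libraries against 3, exact permutation has a smallest two-sided p of 0.1. Of the 10102 genes, 316 were under 5 RPKM in all 6 libraries, and 18 had dates in place of symbols. Every P0 library was under 5 RPKM for 846 genes and every P9 library for 878. A gene that passed the floor only through one age had to be higher there.

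Gene lists (58, of which 57 had measured members) were described by counts and medians, with no test. The lists, the rule for named genes and the comparison itself were chosen with earlier results of these data known. The rule named the 15 largest rises and 15 largest falls among called genes that averaged 5 RPKM or more at an age, with separate libraries and a proper symbol. It added up to 4 members called in each direction per list, all members of lists of up to 6, and 12 preset regulators. Further members are named to complete a list and were chosen after their values were seen. Means carry the SD over 3 libraries. Promoter sequences came from RefSeq (GRCm38.p6), where 7295 of the 10102 symbols matched. Alternatives were other pseudocounts, a minimum mean of 10 RPKM, 2 scalings, all 9 libraries, no trend, analysis of variance on untransformed RPKM, a replicate block and leaving out each library. A few members of the lists are counted in them but are not reported here by name.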

Additional observations from a re-analysis of the deposited data

How the results depend on the processing

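The numbers of genes that rose (2093) and fell (2526) stayed within 1.5 times under each alternative except for those given here. With a mean of at least 10 RPKM required, 6434 genes were tested, 1447 fell, and 267 rose and 205 fell by at least 2-fold. Analysis of variance on untransformed RPKM called 1393 rises. With a pseudocount of 5, which shrinks low genes, 237 rose and 162 fell by at least 2-fold. Leaving out each library in turn gave 1703 to 2097 rises and 1978 to 2490 falls, with 446 to 489 rises and 374 to 459 falls of at least 2-fold. The median difference over all genes was -0.041. Of the genes called, 2 changed sign with quantile normalization and 0 in the other alternatives.

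Whether the replicate numbers pair the libraries was not settled, since deviations from a mean of 3 libraries are not independent of each other. Deviations from the age means correlated at -0.157, 0.219 and 0.275 between same-numbered libraries. Replicates 2 and 3 of each age correlated best with their own number. P0 replicate 1 correlated best with P9 replicate 3 (0.161), and P9 replicate 1 with P0 replicate 2 (0.180). With the number as a replicate block, 2070 genes rose and 2448 fell, 462 and 422 of them by at least 2-fold.

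Of 423 genes chosen by the rule or after it, 343 kept their call or lack of one in all alternatives that tested them and 0 reversed. Analysis of variance on untransformed RPKM, which differs from the limma fit in both the scale and the variance estimate, ended the call of 67 of them, among them Hspa1a (adjusted p = 0.0511) and Lbp (adjusted p = 0.0927). The cause was not tested. The number was 6 with scaling by the sum without ribosomal and mitochondrial genes, 5 with quantile normalization and 8 to 21 when a library was left out (21 without P0 replicate 1 or P9 replicate 2). Genes under 5 RPKM throughout the series were not measured here, and depth in reads per gene is unknown, so no interval for single low values can be given.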

Other observations

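The genes given here lie outside the lists above. They were picked one by one from the called genes after their values were seen, so they say nothing of how any wider group of genes moved. Serpina3n, a serine protease inhibitor of the acute phase, was at 3.12, 3.77 and 4.27 RPKM at P0 and 32.3, 32.01 and 31.1 RPKM at P9 (2.8 ± 0.11, adjusted p = 1.40e-07). Osmr, a receptor for the cytokine oncostatin M, was at 4.57, 4.29 and 7.17 RPKM at P0 and 34.8, 35.9 and 44.3 RPKM at P9 (2.65 ± 0.17, adjusted p = 1.76e-06), and Chi3l1, a secreted chitinase-like protein, rose from 1.96 ± 0.449 to 16.6 ± 1.93 RPKM. The adhesion molecule Icam1 rose from 1.51 ± 0.374 to 9.203 ± 3.496 RPKM, the apoptosis inhibitor Birc3 from 0.372 ± 0.177 to 5.66 ± 1.07 RPKM and the NF-kappaB subunit Nfkb2 from 12.4 ± 0.507 to 23.1 ± 3.76 RPKM. Stat5a was at 1.17, 1.38 and 1.17 RPKM at P0 and 10.2, 8.78 and 10.8 RPKM at P9 (2.28 ± 0.11, adjusted p = 5.24e-07), and all of these were higher in each P9 library than in any P0 library. Apoe, an apolipoprotein, was at 129, 186 and 143 RPKM at P0 and 521, 502 and 480.3 RPKM at P9 (1.72 ± 0.15, adjusted p = 1.22e-05), the lipocalin Apod rose from 57.02 ± 8.9 to 279.8 ± 16.7 RPKM and Clu from 101 ± 12.9 to 186 ± 11.1 RPKM. The neuropeptide genes Gal, which encodes galanin, and Cartpt rose from 8.73 ± 1.05 to 33.8 ± 6.84 RPKM and from 0.3603 ± 0.148 to 5.54 ± 1.98 RPKM.

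Srf, the gene of serum response factor, was at 30.9, 33.3 and 35.2 RPKM at P0 and 12.4, 13.1 and 9.903 RPKM at P9 (-1.42 ± 0.11, adjusted p = 8.77e-06). Thbs1, thrombospondin 1, was at 341, 369 and 383 RPKM at P0 and 98.3, 92.4 and 56.01 RPKM at P9 (-2.17 ± 0.19, adjusted p = 1.52e-05), the calponin Cnn2 fell from 41.3 ± 4.39 to 10.01 ± 0.338 RPKM, and the tropomyosin Tpm1 from 244 ± 20.5 to 130.4 ± 2.64 RPKM. The growth factors Mdk, midkine, and Ptn, pleiotrophin, which share a fold and receptors, both fell. Mdk was at 589, 677 and 594 RPKM at P0 and 199, 161 and 147 RPKM at P9 (-1.88 ± 0.14, adjusted p = 5.76e-06) and Ptn fell from 305 ± 36.1 to 145 ± 14.8 RPKM. Of the neurotrophins of the inner ear, Ntf3 was at 7.91, 6.84 and 7.14 RPKM at P0 and 1.22, 2.39 and 2.23 RPKM at P9 (-1.52 ± 0.16, adjusted p = 4.85e-05) and Bdnf at 18.99, 20.1 and 21.1 RPKM at P0 and 31.03, 31.7 and 22.8 RPKM at P9 (0.47 ± 0.13, adjusted p = 0.0130), so these 2 moved in opposite directions with no overlap between the ages. The call of Bdnf was lost without P9 replicate 2 (adjusted p = 0.0593). Ion channels that fell were P2rx3, an ATP-gated channel, at 11.5, 11.001 and 10.8 RPKM at P0 and 2.63, 2.39 and 2.304 RPKM at P9 (-1.82 ± 0.10, adjusted p = 6.97e-07), and the acid-sensing Accn4, from 9.67 ± 0.626 to 1.52 ± 0.201 RPKM. The related Accn3 fell from 5.98 ± 1.01 to 1.17 ± 0.0907 RPKM.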
